A study of Mus musculus with 4 samples.

Results

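The HoxB cluster on mouse chromosome 11 and the long interval between Hoxb9 and Hoxb13 inside it are described here from ATAC-seq peak lists. In ATAC-seq a transposase cuts accessible DNA and tags the cut ends for sequencing, and a peak is a stretch where such cuts pile up above the local background. The members are the merged peak intervals, called regions below, that overlap chr11:96190713-96374733 (build mm10) in 4 libraries of mouse embryonic stem cells. There were 50 such regions among 208211 in all libraries together. Each region was given to the listed gene that it overlapped, or else to the nearest of the 10 Hoxb genes. A region overlapping several listed genes went to the one with the longest overlap, and ties went to the nearest midpoint.

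Both genotypes, wt and Hox-/-, had 2 libraries. All cells were kept in a serum-containing 2i medium with leukaemia inhibitory factor, the GSK-3 inhibitor CHIR99021 and the MEK1/2 inhibitor PD0325901. The libraries labelled Hox-/- come, per the series title, from cells lacking all Hox function, and their sample titles carry the letters BADC. The labels do not say how the alleles were made, whether the line is 1 clone, or whether replicates came from separate cultures, so the spread between replicates may be technical.

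Hox genes encode homeodomain transcription factors that give cells their position along the head-to-tail axis, and mammals carry them in 4 clusters. Within a cluster the genes point the same way, and their order on the chromosome matches the order in which they are switched on in the embryo: Hoxb1 early and towards the head, Hoxb13 late and towards the tail. HoxB stands out among the clusters for the long stretch without a Hox gene between Hoxb9 and Hoxb13. In undifferentiated stem cells Hox genes are known to be largely silent under Polycomb repression, with many of their promoters still marked for later use.

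The sequences below show what lies upstream of gene starts in the cluster that differed in their wt peaks. Each is the 250 bases before an annotated start, from RefSeq (GRCm38.p6), printed 5′ to 3′ on the strand of the gene. The RefSeq table had an entry for Hoxb1, Hoxb4 and Hoxb8, 3 of the 10 listed genes, and for the noncoding genes Gm30134, Gm51876 and Hoxb3os. Capitals mark matches on either strand to GATGGAT, which occurs in the sites through which Hox proteins with Pbx cofactors act on Hoxb1, and to TTTATNG, the core recognised by the CDX family of Hox regulators. Both motifs were chosen after the sequences had been seen, and a match is a string of letters, not a binding site.
Hoxb1, chr11:96365508-96365757, plus strand, under a peak in both wt libraries: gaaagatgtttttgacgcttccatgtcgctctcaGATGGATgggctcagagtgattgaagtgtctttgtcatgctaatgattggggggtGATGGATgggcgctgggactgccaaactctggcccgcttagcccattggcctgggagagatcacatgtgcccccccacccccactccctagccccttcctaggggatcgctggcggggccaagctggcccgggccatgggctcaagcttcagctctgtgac
Hoxb4, chr11:96318017-96318266, plus strand, under a peak in 1 wt library: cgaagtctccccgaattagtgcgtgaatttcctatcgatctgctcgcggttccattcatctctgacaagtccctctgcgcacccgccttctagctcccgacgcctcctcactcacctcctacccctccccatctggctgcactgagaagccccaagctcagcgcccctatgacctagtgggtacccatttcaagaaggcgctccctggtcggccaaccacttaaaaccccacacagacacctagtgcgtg
Hoxb8, chr11:96281655-96281904, plus strand, under no peak: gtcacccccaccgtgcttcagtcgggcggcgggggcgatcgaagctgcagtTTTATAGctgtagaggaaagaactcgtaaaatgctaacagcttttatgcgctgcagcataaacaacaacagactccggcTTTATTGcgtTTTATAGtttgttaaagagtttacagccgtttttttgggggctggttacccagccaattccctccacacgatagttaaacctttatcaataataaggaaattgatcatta
Gm30134 (1 of 3 entries), chr11:96203627-96203876, minus strand, in the interval between Hoxb9 and Hoxb13, under a peak in both wt libraries: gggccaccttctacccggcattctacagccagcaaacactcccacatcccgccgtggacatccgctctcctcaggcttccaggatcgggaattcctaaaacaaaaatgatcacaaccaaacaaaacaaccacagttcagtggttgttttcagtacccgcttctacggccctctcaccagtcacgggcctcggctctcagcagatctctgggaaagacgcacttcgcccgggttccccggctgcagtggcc

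All 250 printed bases of Hoxb1 lay under a peak in each wt library, and this sequence held 2 matches to GATGGAT. Of 32817 such upstream sequences of all genes, 2.28% held at least 1 match and 0.0884%, or 29 sequences, held at least 2. The Hoxb8 sequence held 3 matches to TTTATNG. Of the upstream sequences, 9.81% held at least 1 such match and 0.0488%, or 16 sequences, held at least 3. The limits of 2 and 3 matches equal the counts found in Hoxb1 and Hoxb8, so these shares are no test. None of the 250 bases of the Hoxb8 sequence lay under a peak in any library. In Hoxb4, 225 of the 250 bases were under a peak in wt replicate 2 and 0 in wt replicate 1. That peak was weak, with a fold of 2.52 and rank 196985 of 216795, and its region was assigned to Hoxb3. Gm30134 had all 250 bases covered in both wt libraries. The sequences held 7 CG dinucleotides in Hoxb1, 14 in Hoxb4, 12 in Hoxb8 and 13 in Gm30134, against a median of 6 (quartiles 2 and 16) over all upstream sequences. In both Hox-/- libraries 0 bases of these 4 sequences lay under a peak. For comparison, 49.9% of all RefSeq promoter windows (250 bases before to 50 after a start) were overlapped by a peak in both wt libraries.

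The number of listed peaks was 213705 for wt replicate 1, 216795 for wt replicate 2, 191704 for Hox-/- replicate 1 and 200214 for Hox-/- replicate 2. Read counts are not in the lists, so the depth is unknown, and a library with fewer listed peaks can miss weak regions. All 8 embryonic stem cell markers examined (Pou5f1, Sox2, Nanog, Klf4, Esrrb, Zfp42, Tfcp2l1 and Dppa5a) had a peak in or within 1 kb of the gene among the 50000 strongest of each library. Of 4 fibroblast markers, 1 (Col1a1) had one in each library, while trophoblast markers had 4 to 5 of 5, primitive endoderm markers 2 to 4 of 5 and neural markers 2 to 4 of 4. Every gene of the 5 lists had some listed peak in every library, so an open region near a gene does not show that the gene is expressed. The genotypes also differed on chromosome Y, with 63 peaks in each wt library against 4 and 6 in Hox-/-. Its part in the results at HoxB was not tested.

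The ends of the window are themselves peaks of Hox-/- replicate 2, so the lack of Hox-/- peaks between them follows from how the window was drawn. The annotated span of the 10 genes, chr11:96194316-96368254, comes from the gene table, but it lies wholly inside the window. The Hox-/- counts in it are therefore given as a description, with no test. The wt libraries had 57 and 59 peaks in this span of 174 kb, and both Hox-/- libraries had 0. The mean in wt was 58 ± 1.41 peaks (SD, n = 2). Peaks covered 21.4 and 20.2 kb of the span in wt, 12.3% and 11.6% of it, and 0 kb in Hox-/-. The mean in wt was 20.8 ± 0.865 kb (SD, n = 2).

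**Figure D1:**
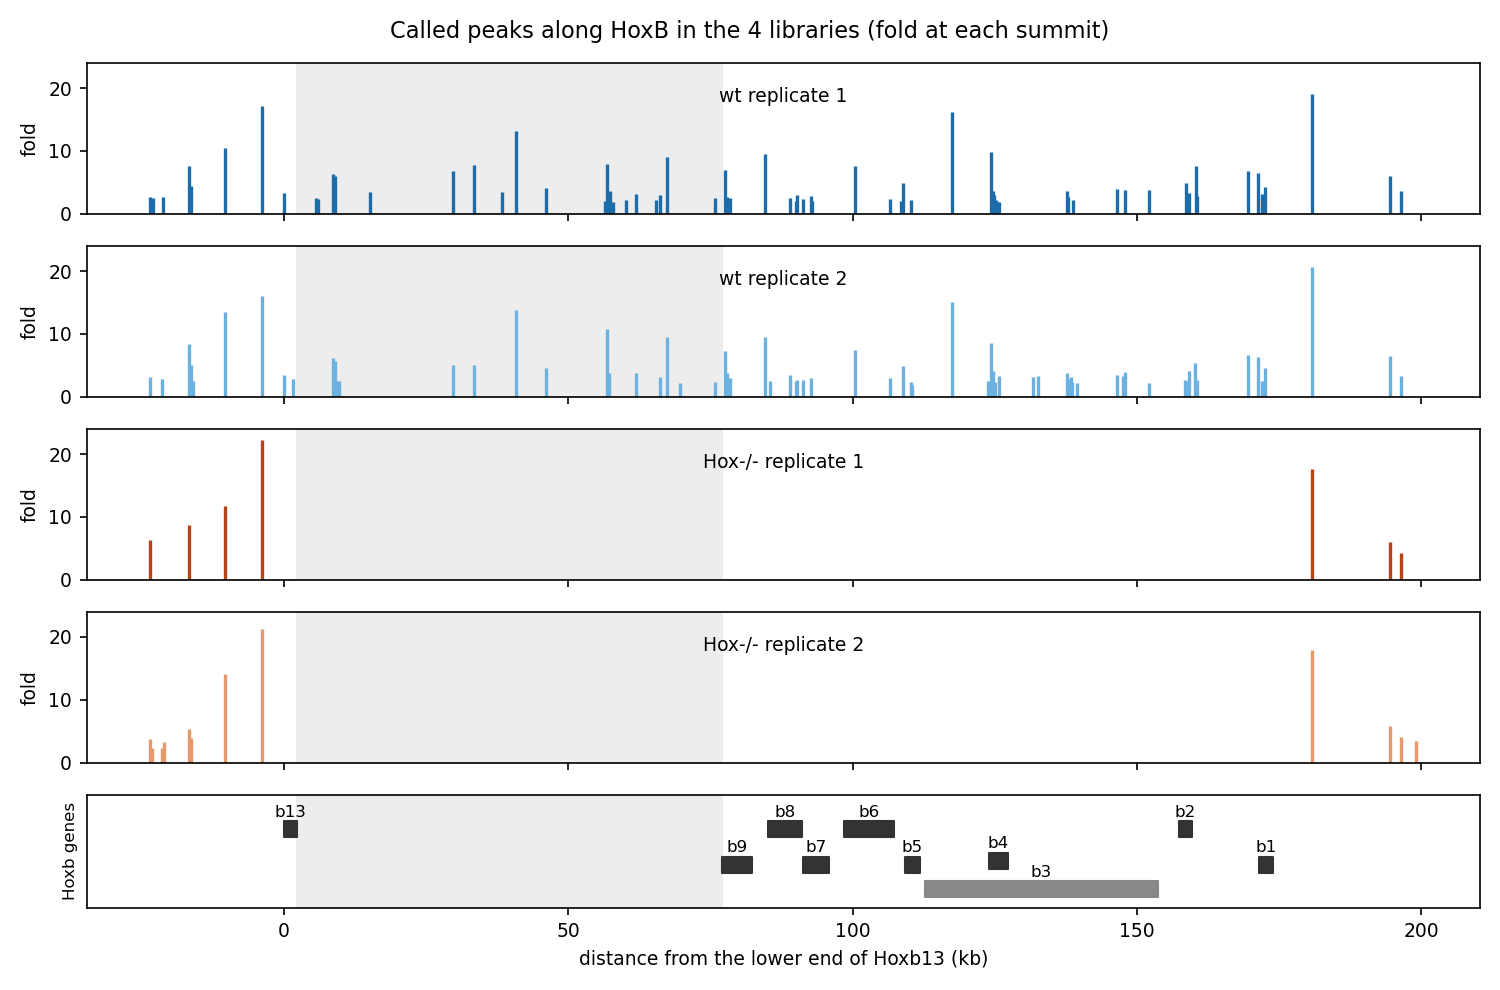
Called peaks along the HoxB cluster in the 4 libraries, with distance from the lower end of Hoxb13 in kb on the x axis and, as vertical lines, the fold over background that the authors' caller gave each summit on the y axis. The bottom row shows the Hoxb genes, and grey marks the interval between Hoxb9 and Hoxb13. The 57 and 59 wt peaks of the gene span have no counterpart in Hox-/-, while the tall peak on either side of the span appears in all 4 libraries.

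Both wt libraries called 35 regions in the gene span, and no Hox-/- library had a peak in any of them: 0 of 35 were kept, as the window's definition requires. Genome-wide, 5.44% of 146769 regions called in both wt libraries lacked a peak of any Hox-/- library. Taken singly, Hox-/- replicate 1 lacked 12.4% and Hox-/- replicate 2 lacked 9.35% of them. The interval between Hoxb9 and Hoxb13 contributed 10 of the 35 regions and the stretch from Hoxb1 to Hoxb9 24, with 0 kept in either.

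The regions were also divided by rank. Rank 1 is the peak with the highest −log10 p of a library, and a region takes the worse of its 2 wt ranks. Of the 35 HoxB regions, 7 ranked within 50000, 6 beyond 50000 but within 100000 and 22 beyond 100000. In the first of these classes 0.058% of 41408 regions genome-wide lacked a Hox-/- peak, in the second 0.232% of 36704 and in the third 11.5% of 68657. These shares are background only, since the HoxB regions were all without one by the choice of window.

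**Figure D2:**
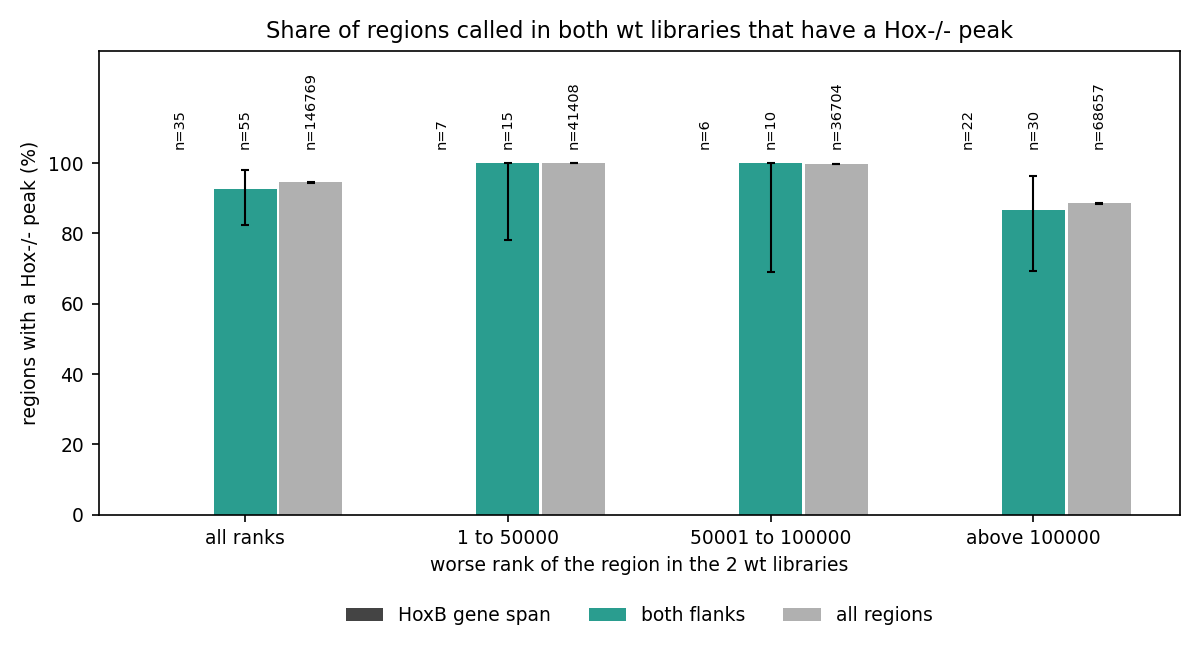
Percentage of regions called in both wt libraries that had a peak of any Hox-/- library (y axis), for all ranks and for 3 classes of the worse wt rank (x axis). Bars stand for the HoxB gene span, both flanks and all regions, error bars on the flanks and on all regions are exact 95% binomial intervals, and n is the number of regions. The HoxB bars are at 0 in every class, as the choice of window fixes, while flanks and all regions lie between 86.7% and 100%.

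Open chromatin resumed just outside the gene span in both Hox-/- libraries. The region at chr11:96189896-96190713 had its nearest Hox-/- edge 3603 bp below the lower end of Hoxb13. Its fold over background was 17.2 in wt replicate 1, 16.01 in wt replicate 2, 22.2 in Hox-/- replicate 1 and 21.3 in Hox-/- replicate 2. It was among the strongest peaks of each list, at ranks 3617, 4904, 2052 and 2079 in the same order. On the other side, the region at chr11:96374733-96375349 began 6479 bp above the upper end of Hoxb1. Its fold was 19.02 and 20.7 in wt and 17.6 and 18.0 in Hox-/-, with ranks 11037, 9393, 10054 and 11176. These 2 members are the only ones of the 50 called in a Hox-/- library, and they belong to the window by 1 base at its ends.

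Flanks as long as the window were examined on either side. In the lower flank, towards Ttll6, 30 of 34 regions called in both wt libraries had a Hox-/- peak (88.2%, exact 95% Clopper-Pearson interval 72.5% to 96.7%, which covers counting error only), 26 of them in Hox-/- replicate 1 and 28 in replicate 2. In the upper flank, towards Skap1, all 21 of 21 had one (interval 83.9% to 100%), 19 in each Hox-/- library. The 4 regions of the lower flank without a Hox-/- peak all ranked beyond 100000 in wt. Peak numbers were 54 and 49 in wt against 33 and 39 in Hox-/- in the lower flank (two-sided exact permutation test, p = 0.33, which is the lowest value possible with 2 against 2 libraries), and 26 and 26 against 28 and 22 in the upper flank (exact permutation test, two-sided, p = 1).

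As a description with no test, the autosomes had 1167 stretches between neighbouring Hox-/- peaks that were at least as long as the one at HoxB, 184 kb. The HoxB stretch held 35 regions called in both wt libraries. The 1166 others held a median of 0 and at most 3, and 87.0% of them held none. The length limit is that of the HoxB stretch itself. It leaves out shorter stretches, such as those at Hoxa3 and Hoxd3, with 13 and 9 regions called in both wt libraries and no Hox-/- peak. These counts therefore cannot set HoxB apart from the other Hox clusters. In wt the longest stretch without a peak inside the same window was 14.2 kb in replicate 1 and 19.8 kb in replicate 2, both in the interval between Hoxb9 and Hoxb13.

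Most wt regions were called in both libraries, and those called in 1 only fell differently along the cluster. Between the window ends, wt replicate 1 had 41 regions and replicate 2 had 42, of which 35 were shared. Thus 6 of 41 regions (14.6%, exact 95% interval 5.57% to 29.2%) of replicate 1 were not called in replicate 2, against 12% of its regions genome-wide. Of the regions of replicate 2, 7 of 42 (16.7%, interval 6.97% to 31.4%) were not called in replicate 1, against 13.3% genome-wide. Regions found in 1 wt library only were weak, ranking 144557 to 190624 in replicate 1 and 175921 to 213320 in replicate 2. Across the 35 shared regions the ranks of both libraries correlated with Pearson's r = 0.95 on the log2 scale and Spearman's rho = 0.92, and across 146769 regions genome-wide with r = 0.97 and rho = 0.94. These values describe regions that share a library and are not independent. In 21 of the 35 regions the strongest summits of both libraries lay within 25 bp of each other.

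HoxB regions were of ordinary width, and their median rank was somewhat weaker than that of all regions. Their median width was 544 bp, against 540 bp for all regions called in both wt libraries. The median of the worse wt rank was 114908 at HoxB and 93221 genome-wide. Of the 35 HoxB regions 7 (20%) ranked within 50000 in both wt libraries, against 28.2% of all. With so few regions these differences may be counting error, and they were not tested. More than 1 summit was called in both wt libraries in 25.7% of HoxB regions and in 18.6% of all.

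**Figure D3:**
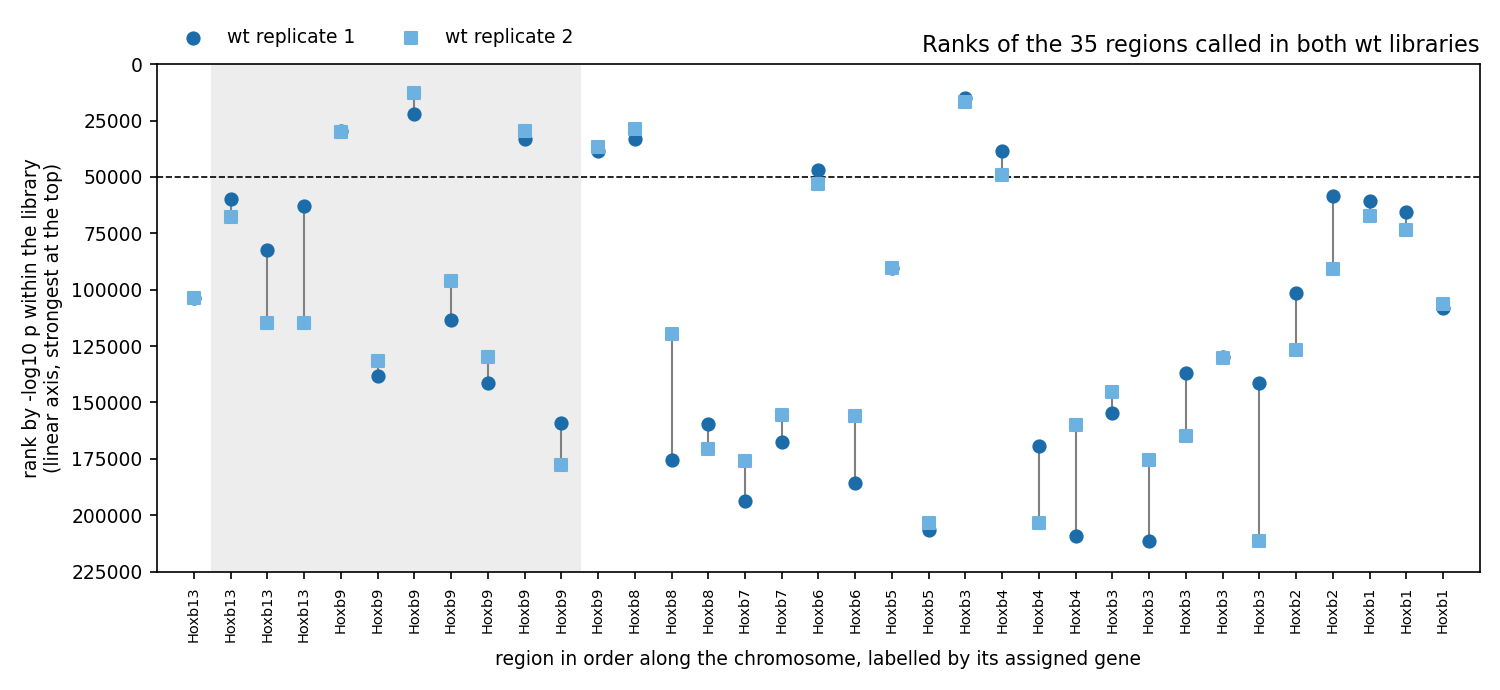
Rank by −log10 p within its library (y axis, strongest at the top) of each of the 35 regions called in both wt libraries, in order along the chromosome and labelled by assigned gene (x axis). Circles are wt replicate 1, squares wt replicate 2, grey marks the interval between Hoxb9 and Hoxb13, and the dashed line is rank 50000. Of the 7 regions above the line in both libraries, 3 lie in the grey interval and the others at Hoxb9, Hoxb8, Hoxb3 and Hoxb4.

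The stretch from Hoxb1 to Hoxb9, chr11:96271330-96368254, spans 96.9 kb and the interval between Hoxb9 and Hoxb13, chr11:96196611-96271329, 74.7 kb. Peak intervals were denser along the genes: wt replicate 1 had 2.68 per 10 kb there and 2.14 in the interval, and wt replicate 2 had 2.99 and 1.47. The covered share was 13.7% and 14.4% along the genes and 10.8% and 8.02% in the interval. The order held in each wt library, with a difference in density of 0.541 in replicate 1 and 1.52 in replicate 2. With only the 50000 strongest peaks per list, the mean difference in density was 0.0628 per 10 kb and that in covered share changed sign, to −0.203 percentage points. The median worse rank was 142642 for the 24 regions along the genes and 114090 for the 10 in the interval.

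The interval between Hoxb9 and Hoxb13 held 17 regions, 16 of them called in wt replicate 1 and 11 in wt replicate 2. By distance 10 of these fell to Hoxb9 and 7 to Hoxb13. The 10 shared regions were separated by 0.681 to 19.7 kb, with a median of 4.68 kb. No Hox-/- library had a peak in any of the 17.

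By the worse of its wt ranks, the strongest region of the interval was chr11:96250413-96252372, which is 1960 bp wide and overlaps the end of the noncoding gene Gm53 nearer to Hoxb13. Its highest fold was 7.95 with 4 summits in wt replicate 1 and 10.8 with 2 summits in replicate 2, at ranks 21928 and 12613. Next came chr11:96234912-96235484, which overlaps no annotated gene and lies 35845 bp from Hoxb9, near the middle of the interval. It had a fold of 13.1 and 13.9 and ranks of 29601 and 30010, nearly equal in the libraries. Ranked by fold the order turned, with a worse rank of 14639 for this region and 46033 for the wider one. The region chr11:96261391-96261915, inside Gm53, had a fold of 9.01 and 9.42 and ranks of 33200 and 29442. Gm53 overlapped 4 of the 10 shared regions of the interval in all, the other two being chr11:96256120-96256396 (ranks 113272 and 96318) and chr11:96260295-96260709 (ranks 141193 and 129790).

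Nearer to Hoxb13, the region chr11:96202696-96204113 covers the facing ends of the noncoding genes Gm30134 and Gm11538, and it contains the printed Gm30134 sequence. Its highest fold was 6.25 in wt replicate 1 and 6.20 in replicate 2, at ranks 59966 and 67699. The regions chr11:96223863-96224146 and chr11:96227459-96227975 were stronger in replicate 1, with ranks of 82230 and 62831, than in replicate 2, where both ranked 114908. The remaining shared regions were chr11:96240162-96240516 (ranks 138192 and 131397) and chr11:96269960-96270368 (ranks 159158 and 177594), the latter just before Hoxb9. All 6 regions called only in wt replicate 1 lay in this interval (chr11:96199711-96200062, 96200276-96200480, 96209382-96209626, 96232427-96232784, 96254387-96254591 and 96259627-96259835), and 1 of the 7 called only in replicate 2 did (chr11:96263854-96264059).

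Both microRNA genes of the cluster lay between peaks. MicroRNAs of the miR-10 and miR-196 families are known to target Hox transcripts. The mature forms from the 5′ arms are shown as reference sequences and were not read from any library. They come from RefSeq (GRCm38.p6), both on the plus strand, with the seed (bases 2 to 8) in capitals. The seeds differ.
mmu-miR-196a-5p, chr11:96265187-96265208, between Hoxb9 and Hoxb13: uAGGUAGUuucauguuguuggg
mmu-miR-10a-5p, chr11:96317186-96317208, before Hoxb4: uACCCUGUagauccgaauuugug
The nearest region called in both wt libraries was 3249 bp from Mir196a-1 and 1174 bp from Mir10a. Weak regions called in wt replicate 2 only lay nearer, chr11:96263854-96264059 to Mir196a-1 and chr11:96318040-96318264 to Mir10a.

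All 10 genes had at least 1 assigned region called in both wt libraries. Of the 50 regions, 27 overlapped a listed gene and 23 were assigned by distance. RefSeq places Hoxb1, Hoxb4 and Hoxb8 on the plus strand, so the lower end of a gene in coordinates is its start side, although the RefSeq start of the printed Hoxb8 sequence lies further inside the gene. A region called in both wt libraries lay within 1 kb of the lower end of 7 of the 10 genes (all but Hoxb2, Hoxb3 and Hoxb6; at Hoxb8 this holds for the annotated end and not for the start of the printed sequence), against 46.8% of 21887 protein-coding genes. At the upper end this held for 3 of the 10 (Hoxb2, Hoxb6 and Hoxb8), against 46.1%. The background mixes both strands, so its ends are a mix of starts and stops.

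**Figure D4:**
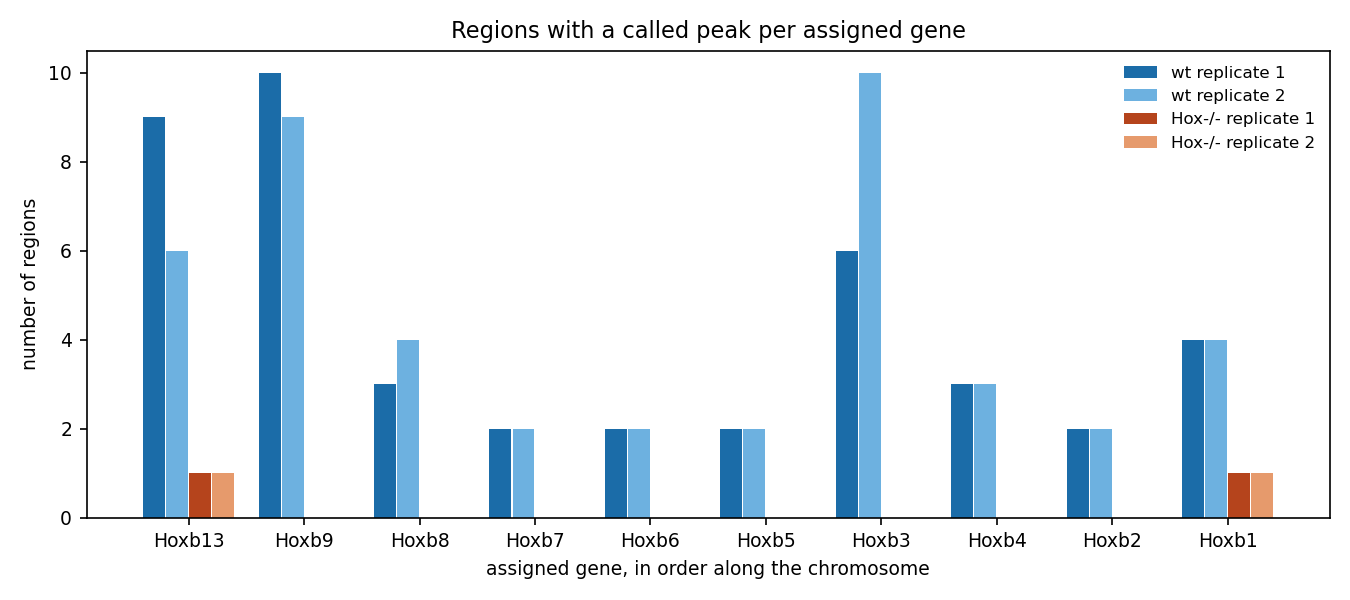
Number of regions with a called peak (y axis) per assigned gene, in order along the chromosome (x axis), in each of the 4 libraries. Hoxb13, Hoxb9 and Hoxb3 have the most in wt, and the single Hox-/- regions at Hoxb13 and Hoxb1 are those at the window ends.

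Hoxb1, which acts in hindbrain segment identity, occupies chr11:96365746-96368254 and had 4 regions in each wt library, including the one at the upper window end. The region over its start, chr11:96365436-96365979, had a fold of 6.50 and 6.32 and ranks of 65390 and 73568. A region before the gene, chr11:96363680-96364229, ranked slightly better at 60787 and 67539. A weaker one within the gene, chr11:96366124-96367039, ranked 107910 and 106344. The replicates stayed close at all of them.

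Hoxb2, a hindbrain gene next to Hoxb1, lies at chr11:96351632-96354020 and had 2 regions in each wt library. The stronger one, chr11:96354304-96355021, was 284 bp beyond its upper end, with a fold of 7.66 and 5.37 and ranks of 58268 and 90946. The other, chr11:96352663-96353645, overlapped both Hoxb2 and the antisense gene Hoxb3os and ranked 101293 and 126554. Open DNA has no strand, so the peak belongs to neither gene more than to the other.

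Hoxb3 has the longest annotated span of the cluster, chr11:96307101-96347930, which also contains Hoxb4. Without the regions given to Hoxb4, it had 6 regions in wt replicate 1 and 10 in replicate 2, of which 6 were shared. One of them, chr11:96311551-96312227, was the strongest region of the gene span by the worse of its wt ranks, with a fold of 16.2 and 15.1 and ranks of 14994 and 16638. The others shared were much weaker, ranking between 129779 and 211596. The gene table gives no exons, so exon or intron cannot be assigned.

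Hoxb4, used to expand blood stem cells, lies at chr11:96318267-96321638 and had 3 regions in each wt library, all overlapping the gene. The first, chr11:96318448-96319061, began 181 bp after the lower end, with a fold of 9.79 and 8.47 and ranks of 38725 and 49097. The other two were weak, ranking 160075 to 209197. With regions closer than 100 bp merged, the 3 became 1, and with a −log10 q of at least 5 there was 1. Assigned by their midpoint to the nearest gene end, 5 regions called in both wt libraries went to Hoxb4 and 4 to Hoxb3.

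Hoxb5, Hoxb6 and Hoxb7 had 2 regions each in each wt library, and with a −log10 q of at least 5 the number called in both fell to 1 for each. The stronger region of Hoxb5, chr11:96302775-96303372, ended 140 bp before its lower end and had nearly equal values, a fold of 4.93 and 4.88 and ranks of 90299 and 90263. At Hoxb6 the region chr11:96294351-96295078 had a fold of 7.61 and 7.46 and ranks of 46962 and 52965, on either side of rank 50000. Hoxb7 had the weakest best region of the 10 genes, chr11:96286816-96287342, with a fold of 2.80 and 2.98 and ranks of 167724 and 155561. The noncoding antisense gene Hoxb5os overlapped all 4 regions of Hoxb5 and Hoxb6.

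Hoxb8, known for holding myeloid progenitors in an immature state when overexpressed, had 3 regions in wt replicate 1 and 4 in replicate 2. The strongest, chr11:96278797-96279164, lay 237 bp before the lower end of the gene, with a fold of 9.44 and 9.50 and ranks of 33214 and 28927. The start behind the printed Hoxb8 sequence lies further inside the annotated gene, and no peak lay on that sequence. The other regions shared by the wt libraries ranked 119834 to 175460.

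Hoxb9 lies at chr11:96271330-96276595 and was assigned 10 and 9 regions in wt replicates 1 and 2, of which only chr11:96271370-96272934 overlapped it. This region was 1565 bp wide with 3 and 4 summits, a highest fold of 6.94 and 7.34 and ranks of 38413 and 36762. Hoxb13, a gene of the tail end of the axis and of the prostate, lies at chr11:96194316-96196610. A single shared region touched it, chr11:96194145-96194413 at its lower end, with a fold of 3.31 and 3.41 and ranks of 103861 and 103594. The further 8 and 5 regions assigned to Hoxb13 in wt replicates 1 and 2 were the one at the window end, those of the interval and, in replicate 2, a weak one inside the gene (rank 175921).

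Genes elsewhere were searched for the same pattern. Of 10382 protein-coding genes with at least 3 regions called in both wt libraries in or within 1 kb of the gene, 0.125% had no Hox-/- peak there. These were 13 genes: Hoxb3, Hoxb4, Hoxb7 and Hoxb8, the 4 of HoxB with that many regions, and 9 others. For the 4 of HoxB the lack follows from the choice of window. They are not separate cases either, since Hoxb4 lies inside Hoxb3. The 9 were Hoxa3 with 13 regions, Hoxd3 with 9, the Y-linked genes Uty with 5 and Ddx3y with 3, and Hoxc4, Hoxc6, Hoxd8, Hoxd10 and Hoxd11 with 3 each, all of the tied genes being named. Of the 29 Hox genes outside HoxB, 27 had at least 1 region called in both wt libraries in or within 1 kb of the gene, and 23 of these had no Hox-/- peak there. All 10 Hoxb genes had such a region. Of 17372 protein-coding genes with at least 1 such region, 0.547% had no Hox-/- peak.

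A peak list holds no coverage between peaks. Absent DNA and DNA that is present without a called peak therefore cannot be told apart at HoxB from these lists.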

How the data were processed

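ATAC-seq peak lists of 4 mouse embryonic stem cell libraries, 2 per genotype label, were analysed. The submitters' processing notes name build mm10 and the tools cutadapt 4.8, Bowtie2 2.5.0, Picard 2.18.2, bedtools 2.30.0, MACS2 2.2.9.1 and deepTools 3.5.4. Parameters, the handling of duplicates and any shift of reads for the transposase are not given in the sources used here. Per the deposited files, peaks were listed per library and not pooled, and each line has a fold over background (a ratio), a −log10 p, a −log10 q, a whole-number score (10 times the −log10 q, not used) and a summit. These authors' values served to rank, describe and filter peaks inside one list. The lowest deposited −log10 q was 1.30 in each list.

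Lines of all libraries sharing at least 1 bp were merged into regions with Python 3.11.15, numpy 2.4.6, pandas 2.3.3 and scipy 1.17.1, and the merging was tested on simulated data. A region is kept when a Hox-/- peak overlaps it by at least 1 bp. Gene positions come from RefSeq GRCm38.p6, and positions are counted from 1. Named regions are the best of each gene, those between Hoxb9 and Hoxb13 and the window ends, and others were added after their values were seen. Members, lists and tests were chosen with earlier results of these data known. The alternatives were a stricter q, the 50000 strongest peaks, other spans, overlaps and assignments, and leaving out each library.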

Additional observations from a re-analysis of the deposited data

How the results depend on the processing

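Alternative values of the HoxB peak number, covered length and share kept say nothing of stability, since the window fixes their Hox-/- side. The share of regions kept was 32.7% with the HoxB span extended by 50 kb, because the extension takes in flanking regions. The share kept in the flanks, 92.7%, was 32.7% when only the 50000 strongest Hox-/- peaks counted, since a stricter list holds fewer peaks, and 73.8% with the replicate block, which sets each wt library against the Hox-/- library of its number. The difference in density between genes and interval, 1.03 per 10 kb, was 0.0628 with the 50000 strongest peaks, and that in covered share, 4.62 percentage points, became −0.203. The cause was not tested. Without each library in turn, the HoxB peak difference ranged from −59 to −57, the covered length from −21.4 to −20.2 kb, the HoxB share kept from 0 to 0%, the flank share from 81.5% to 85.5%, the density difference from 0.541 to 1.52, the covered difference from 2.90 to 6.34 points, the number of regions within rank 50000 from 7 to 8, and the genes with a region from 10 to 10. The peak difference was −58 with the replicate block too. Over 122787 regions the differences between replicates of both genotypes correlated with r = 0.00360. This shows no signal shared by libraries of the same replicate number, but it cannot tell whether they were prepared in pairs. Of 50 recomputed counts per gene, 8 moved by over 1.5 times, 4 of them (Hoxb4, Hoxb5, Hoxb6 and Hoxb7) with the stricter q. The unknown depth limits what absence of a weak region can show.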
